A study of Mus musculus with 4 samples.

Results

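Lhx6, Lhx8, Pax9 and Pitx1 are transcription factor genes of the oral and dental field of the jaw, and they were followed here in the mandible of mouse embryos that overexpressed Bmp4. They were taken as every probe on the array whose gene symbol, after old synonyms were replaced by current symbols, was 1 of these 4 names. This gave 5 probes, 2 for Lhx8 and 1 for each of the others, among 29922 probes and 16637 named genes. The samples were whole mandibles of C57BL/6 embryos at stage E11.5, and each of 4 one-colour Cy5 arrays read 1 sample. The control group was 2 wild-type samples, and the Bmp4 overexpression group was 2 samples with a conditional Bmp4 overexpression genotype, induced with doxycycline for 24 hours. The labels do not name the promoter or cell type that drives the transgene, nor say whether the wild-type controls received doxycycline. An effect of the drug or genotype and one of Bmp4 therefore cannot be told apart. The labels also do not give the embryos or litters behind each array. The p-values therefore cover the spread between the arrays alone, and that spread may be technical.

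All 4 genes encode DNA-binding proteins with roles in the jaw. Lhx6 and Lhx8 are closely related LIM-homeodomain factors of the oral side of the arch mesenchyme, and in the mouse they act redundantly in molar formation, while Lhx8 is also needed for closure of the palate. Pax9 is a paired-box factor of the dental and palatal mesenchyme, without which teeth arrest at the bud stage, and Pitx1 is a bicoid-class homeodomain factor of the mandible, hindlimb and pituitary. In the early mandible FGF8 from the oral epithelium is known to induce these genes in the mesenchyme below it, and BMP4 from the distal epithelium is known to oppose the induction of Pax9 and Pitx1.

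The RefSeq promoter table (GRCm38.p6) held windows for Lhx6, Lhx8 and Pax9. The 250 bases before 1 start site of each are shown because both LIM-homeodomain relatives had different log2 fold changes and that of Pax9 was near 0. The windows run 5′ to 3′ on the gene's strand, and capitals mark every match, on either strand, to any of 4 motifs: CAGAC, the core of a SMAD-binding element (GTCTG on the other strand), GGCGCC, the core of a GC-rich SMAD element, CGGAAG, which holds the ETS core, and TAATTG, a homeodomain site. The Lhx8 window is chr3:154330561-154330810 on the minus strand, the Lhx6 window is chr2:36104061-36104310 on the minus strand, and the Pax9 window is chr12:56695221-56695470 on the plus strand.
Lhx8: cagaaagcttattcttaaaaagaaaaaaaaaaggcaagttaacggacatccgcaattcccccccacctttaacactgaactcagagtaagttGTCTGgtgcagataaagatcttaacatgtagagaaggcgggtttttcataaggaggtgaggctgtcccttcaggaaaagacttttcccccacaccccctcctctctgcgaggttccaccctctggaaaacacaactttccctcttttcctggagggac
Lhx6: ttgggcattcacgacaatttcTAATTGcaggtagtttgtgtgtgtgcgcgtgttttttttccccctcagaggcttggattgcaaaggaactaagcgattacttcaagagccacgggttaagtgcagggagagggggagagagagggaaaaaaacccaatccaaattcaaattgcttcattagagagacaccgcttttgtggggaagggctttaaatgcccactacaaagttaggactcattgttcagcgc
Pax9: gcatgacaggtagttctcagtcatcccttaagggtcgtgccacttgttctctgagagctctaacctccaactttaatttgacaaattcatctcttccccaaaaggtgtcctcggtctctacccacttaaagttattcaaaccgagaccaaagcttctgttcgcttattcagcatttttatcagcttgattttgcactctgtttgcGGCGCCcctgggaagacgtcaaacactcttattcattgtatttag
The Lhx8 window held 1 CAGAC match and none of the other motifs; CAGAC was in 42.2% of the 32851 windows of the table, cut to the same length. The Lhx6 window, the most downstream of its 3 listed starts, held 1 TAATTG match (7.17% of all windows). Of the other 2 Lhx6 windows, 1 held a single CAGAC match and the other held no match. The Pax9 window held 1 GGCGCC match (9.59% of all windows), and CGGAAG, present in 13.6% of all windows, was in none of the 5. The Lhx8 window had 4 CG dinucleotides, the Pax9 window 7 and the Lhx6 windows between 7 and 17, against a median of 6 over the table. These matches describe the letters only, and which promoter was in use in the mandible was not measured.

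The arrays gave normalised log2 intensities with a median of 7.95 and a lower quartile of 6.79 on every array. Arrays of the same group correlated across probes with r = 0.993, and those of different groups with r between 0.974 and 0.981. Bmp4 itself read 11.96 and 12.07 in the controls and 15.27 and 15.31 in the overexpression samples, a 9.68-fold difference. Over all named genes, each read by its brightest probe, 7.39% were higher and 9.54% lower at an adjusted p of 0.05 (limma, Benjamini-Hochberg adjusted over all probes). At this threshold 2 of the 4 oral-field genes, Lhx8 and Pitx1, fell, and none rose. The study's own rule, at least 2-fold with p under 0.05 before adjustment, was passed by the same 2 genes, against 1.76% of named genes that were lower and 1.56% that were higher. Without any 1 of the 4 arrays limma had 1 residual degree of freedom and called 0 probes at the adjusted threshold, with between 6020 and 7947 probes at an unadjusted p under 0.05, so no call given here was kept in those fits.

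Lhx8 was lower in the overexpression samples on both of its probes. The brighter probe, mMC011224, read 12.25 and 12.28 in the 2 controls and 10.78 and 10.82 in the 2 overexpression samples (log2 intensity). The groups were 1.43 apart at their nearest arrays, while arrays of 1 group differed by at most 0.04. Lhx8 thus fell 2.76-fold (95% interval 2.32 to 3.28; log2 fold change -1.47 ± 0.10, SE; limma, adjusted p = 0.00347). Of the 16637 named genes, 89 had a lower log2 fold change. The second probe, mMR028305, read 10.37 on both control arrays, and 9.36 and 9.07 on the overexpression arrays. On this probe the fall was 2.23-fold (95% interval 1.77 to 2.80; limma, adjusted p = 0.00990). The intervals of both probes overlap, and both readings lay well above the median of the arrays in the controls. When control replicate 1 or 2 was left out, the brighter probe's log2 fold change was -1.48 or -1.45 (limma, adjusted p = 0.191 or 0.138), and when overexpression replicate 1 or 2 was left out it was -1.45 or -1.49 (adjusted p = 0.170 or 0.155). In RNA of whole mandibles, fewer cells that express a gene and less RNA per cell cannot be told apart, which holds for all genes here.

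Pitx1 also fell. Its probe, mMC021250, read 9.79 and 9.92 in controls and 8.64 and 8.52 in overexpression samples (log2 intensity). Both overexpression arrays lay below both control arrays, with 1.15 between the nearest of them and at most 0.13 within a group. The difference was 2.42-fold (95% interval 1.99 to 2.94; log2 fold change -1.28 ± 0.11, SE; limma, adjusted p = 0.00573), and 138 named genes had a lower log2 fold change. The log2 fold change was -1.34 without control replicate 1 and -1.21 without control replicate 2, and -1.34 and -1.22 without overexpression replicates 1 and 2, with adjusted p-values of 0.191, 0.138, 0.170 and 0.155 in limma. Groups that do not overlap are common in a comparison of 2 arrays with 2: 32.3% of named genes had both overexpression arrays below both controls and 31% had both above.

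Lhx6, the closest relative of Lhx8, read slightly higher in the overexpression samples, where Lhx8 fell. Its single probe, mMC019201, read 8.88 and 9.05 in controls and 9.26 and 9.32 in overexpression samples (log2 intensity). Both overexpression values lay above both controls, by 0.21 at the nearest arrays, which is little more than the 0.17 between the 2 controls. The log2 fold change was 0.33 ± 0.11 (SE), or 1.25-fold with a 95% interval of 1.03 to 1.52, short of the threshold (limma, adjusted p = 0.111, unadjusted p = 0.0306). Of the named genes, 3063 had a higher log2 fold change. Under the 8 other processing settings that kept all arrays and had no replicate term, the adjusted p ranged from 0.0775 to 0.276.

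No difference in Pax9 was resolved. Its probe, mMC004280, read 7.58 and 7.66 in controls and 7.70 and 7.56 in overexpression samples (log2 intensity), so the highest and the lowest value both came from the overexpression group. The log2 fold change was 0.01 ± 0.11 (SE), with a 95% interval from -0.27 to 0.29 (limma, adjusted p = 0.964). Changes inside that interval are not resolved by these 4 arrays. The probe lay below the array median of 7.95. The sign of this value turned negative, to -0.10, when arrays were centred on housekeeping genes.

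**Figure D1:**
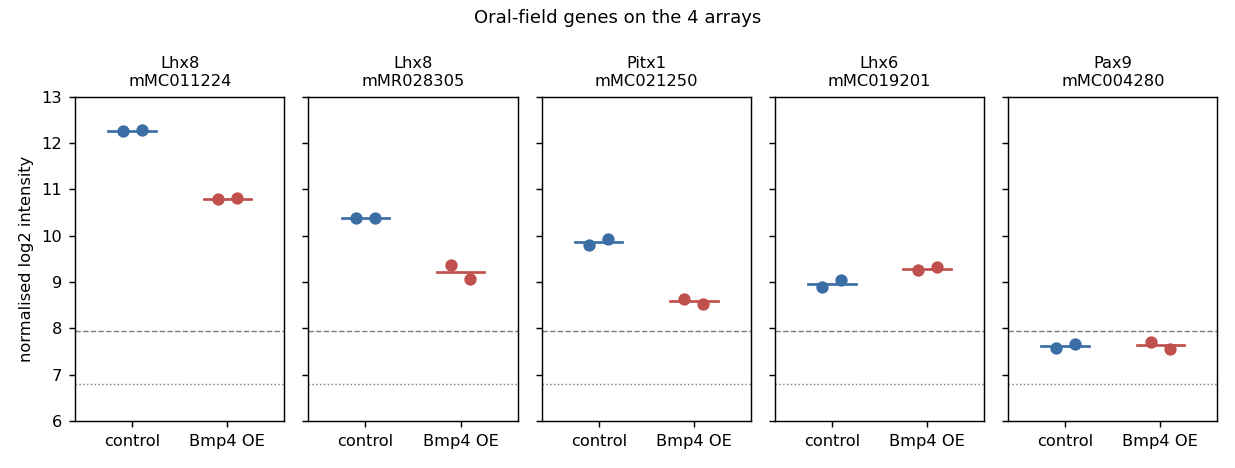
Normalised log2 intensity (vertical axis) of the 5 probes on each array, with control arrays in blue, Bmp4 overexpression arrays in red and the group mean as a bar; the dashed line is the array median of 7.95 and the dotted line the lower quartile of 6.79. Both Lhx8 probes and Pitx1 are lower in overexpression samples, Lhx6 is slightly higher and the Pax9 values overlap.

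The genes were next compared with each other within each array, since a constant scaling factor of an array cancels in the ratio of a pair of its probes. Quantile normalisation acts by intensity, so its effect need not cancel for probes of unlike brightness. Lhx8 is given here by its brighter probe. Relative to Lhx8, Lhx6 was 1.78 and 1.80 log2 units higher on the overexpression arrays than on the mean of the controls, where the 2 arrays differed from their own mean by 0.07. Relative to Pitx1, Lhx6 was 1.51 and 1.69 higher. The fall of Lhx8 was 0.19 log2 units larger than that of Pitx1, with 0.27 and 0.11 on the 2 overexpression arrays and 0.05 as the deviation of each control. On the second Lhx8 probe the order turned, with a log2 fold change of -1.16 against -1.28 for Pitx1. The change of Pax9 exceeded that of Pitx1 by 1.29 log2 units, and the change of Lhx8 minus that of Pax9 was -1.48. An exact permutation test of 2 arrays against 2, two-sided, gave p = 0.333 for each of the 6 pairs, which is the smallest it can give, so none of these differences can pass a threshold by that test.

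Several other genes had profiles over the 4 arrays that were almost the same as those of Lhx8 and Pitx1. Likeness was the root mean square difference of log2 values after each probe was centred on its own mean, over 13783 named genes brighter than the lower quartile, and it is a description over 4 arrays. Nearest to the brighter Lhx8 probe were Aass, an enzyme of lysine breakdown, at 0.013, Tbx18, a T-box factor of mesenchymal tissues, at 0.016, and Fut10, a fucosyltransferase gene, at 0.027. Their log2 fold changes were -1.44, -1.47 and -1.52. The second Lhx8 probe was nearest to Ercc6l and Haspin, which act in mitosis, and to Gbx2, a homeobox gene, at 0.036, 0.038 and 0.047. Pitx1 was nearest to Kif18a, a mitotic kinesin, at 0.039, to Lhx9, another LIM-homeobox gene, at 0.045, and to Syt16, a gene of the synaptotagmin family, at 0.049. Within 0.1 log2 units there were 51 genes for the brighter Lhx8 probe and 53 for Pitx1. The profiles of Lhx6 and Pax9 had 1388 and 1954 such genes, so their nearest genes single out little. For Lhx6 these were Mrpl52, Nipsnap3a and Grip1, and for Pax9 they were Tprkb, Zfp286 and Heg1.

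The other LIM-homeobox genes went in both directions. Of 10 measured relatives, 3 rose, 2 fell and 5 did not pass, a share called of 50% against 16.9% of all named genes. Their median log2 fold change was 0.33, against 0 over all named genes. Isl1, a factor of the distal mandible and of motor neurons, rose most, with a log2 fold change of 2.98. Lhx2, a factor of eye, limb and forebrain development, read 11.40 and 11.80 in controls and 12.47 and 12.58 in overexpression samples, a rise of 0.93 (limma, adjusted p = 0.0234). Isl2, known from motor neurons, rose by 1.09 from control readings of 6.37 and 6.19, below the lower quartile. Lhx9, a close relative of Lhx2, fell in the opposite direction, from 8.01 and 8.23 to 6.84 and 6.72, with a log2 fold change of -1.34 (adjusted p = 0.00655). Lmx1a, a factor of the roof plate and midbrain, fell from 8.98 and 8.89 to 8.12 on both arrays. Lhx4, at 0.69 on the log2 scale, missed the threshold, and the 2 probes of Lhx1 pointed in opposite directions, 0.42 and -0.34.

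LIM-homeodomain proteins act through cofactors that bind or compete for their LIM domains, and 8 of 10 such genes were measured. Of these, 1 rose, 2 fell and 5 did not pass, with a median log2 fold change of -0.14. The share called was 37.5%, against 16.9% of all named genes. Ldb1, the adaptor that joins LIM-homeodomain proteins into complexes, read 13.12 and 13.20 in controls and 13.93 and 13.81 in overexpression samples, a rise of 0.71 (limma, adjusted p = 0.0179). Rlim, a ubiquitin ligase that limits Ldb proteins, fell from 8.16 and 8.26 to 7.50 and 7.70, a log2 fold change of -0.61. Lmo2, a LIM-only protein known from blood and endothelium, had -0.53 and fell. The 2 overexpression arrays lay above the controls for Ldb1 and below them for Rlim and Lmo2. Over all named genes, 31% lay above in this way and 32.3% below.

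Among the relatives of Pax9, the largest difference was in Pax1, which is most like Pax9 and shares its roles in the axial skeleton and pharyngeal pouches. Pax1 fell from 9.02 and 8.56 to 6.67 and 6.43, under the lower quartile of the arrays (log2 fold change -2.24 ± 0.18, SE; limma, adjusted p = 0.00500). Pax3, a gene of neural crest and muscle precursors, fell with a log2 fold change of -1.62. The other 6 of 8 measured Pax genes did not pass, so 25% were called against 16.9% of all named genes. Over all 8 the median log2 fold change was 0.01. Of the 4 measured relatives of Pitx1, Pitx3, known from lens and dopamine neurons, rose by 0.52, from 8.18 and 8.15 to 8.68 on both arrays (adjusted p = 0.0299). Gsc, a homeobox gene of the proximal arch, fell from 12.48 and 12.50 to 11.40 and 11.69, with a log2 fold change of -0.95 (adjusted p = 0.0148). The 2 Otx genes did not pass, so 50% of the 4 were called against 16.9% of all named genes.

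**Figure D2:**
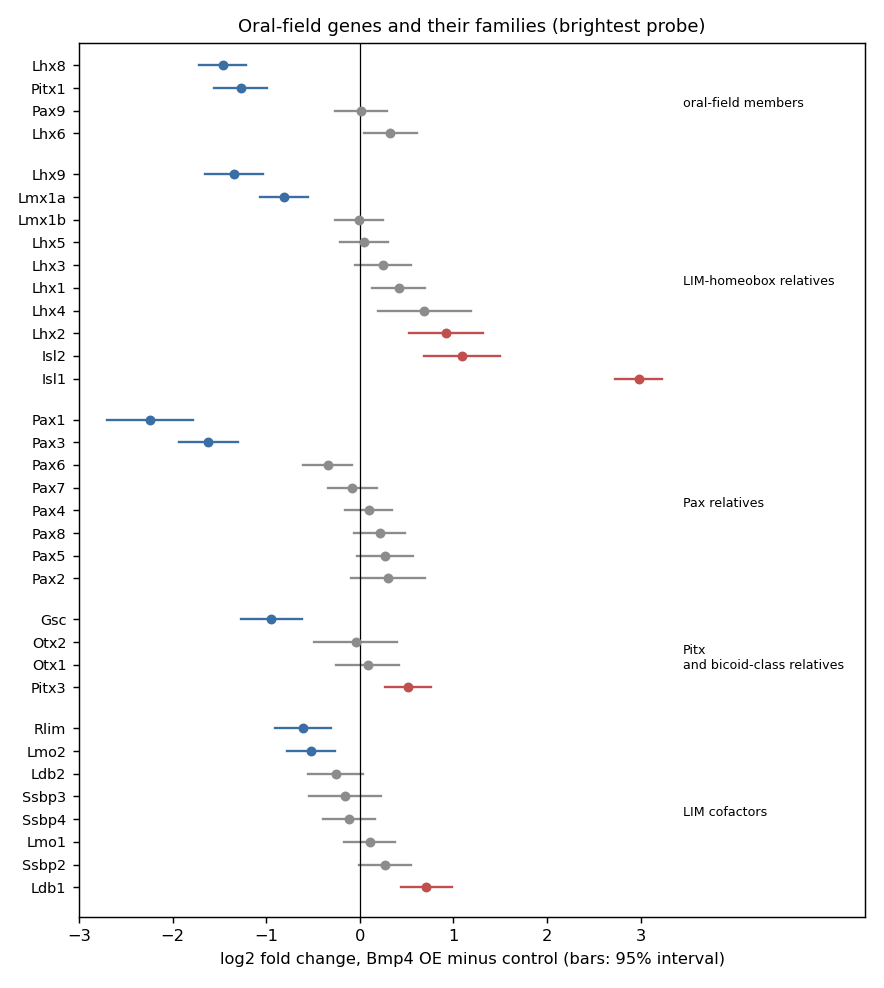
Log2 fold change of Bmp4 overexpression minus control (horizontal axis) for the brightest probe of each oral-field gene, its family relatives and the LIM cofactors, with bars for the 95% interval of the fit, red for genes that rose, blue for genes that fell and grey for those that did not pass. Lhx8 and Pitx1 lie left of 0 with intervals clear of it, and Isl1, at 2.98, and Pax1, at -2.24, lie farthest out among the relatives.

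Among signals that the oral epithelium is known to send to the mesenchyme, Fgf8, Fgf9 and Bmp7 fell and Shh rose. By the brightest probe, the other 9 of 13 measured genes did not pass, so 30.8% were called, against 16.9% of all named genes. The median log2 fold change was -0.21. Wnt10b did not pass on its brighter probe (-0.115). Its dimmer probe fell by 0.45 (limma, adjusted p = 0.0499), from 6.71 and 6.82 to 6.37 and 6.26, near or under the lower quartile. Fgf8 read 8.27 and 8.34 in controls and 7.45 and 7.23 in overexpression samples, and Fgf9 read 9.41 and 9.39, then 8.59 and 8.52. Both ligand genes had both overexpression arrays below both controls, as had 9 of the 13 and 32.3% of all named genes. The ligand gene Bmp7 had a log2 fold change of -1.26. Shh, the Hedgehog ligand of dental epithelium, rose by 0.78. Of 10 genes that read out FGF signalling, 6 fell and none rose on the brightest probe, where 9.54% of all named genes fell and 7.39% rose, and their median log2 fold change was -0.85. These 6 were Dusp6, Etv5, Spry2, Il17rd, Etv4 and Spred1, with log2 fold changes from -1.89 for Dusp6 to -0.83 for Spred1. Spred2, an inhibitor of the same pathway named here after its values were seen, went the other way. Its brighter probe read 12.29 and 13.13 in controls and 13.72 and 13.96 in overexpression samples (log2 fold change 1.13; limma, adjusted p = 0.0517), and its other probe rose by 0.79 (adjusted p = 0.0224). Its brighter probe passed in limma under 6 alternatives that used all arrays, with adjusted p between 0.0300 and 0.0487. When arrays were centred on housekeeping genes, 6 oral signal genes fell and 1 rose. The same centring raised the lower calls over all probes from 2515 to 4659 and cut the higher calls from 1912 to 1570. The count of oral signal genes is therefore not read as a result about them.

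Partner genes of the dental and oral mesenchyme divided in direction. Of 17 measured, 5 rose, 7 fell and 5 did not pass, so 70.6% were called against 16.9% of all named genes, and the median log2 fold change was -0.10. Several of these genes were known from earlier results of the same arrays when the list was made, so its count is no independent evidence. Osr2, Barx1, Osr1, Fgf10 and Dlx1 fell by more than 2-fold, with Osr2 at -3.68 on the log2 scale. Inhba, which encodes a subunit of activin, a signal for tooth mesenchyme, fell from 8.26 and 7.88 to 7.14 and 7.11. Lef1, a transcription factor of WNT signalling needed beyond the tooth bud stage, fell with -0.52 on its brighter probe, while its other probe gave -0.23 and did not pass. The genes that rose were Msx2, Msx1, Tbx3, Foxf2 and Dlx2. Foxf2, a forkhead gene of oral mesenchyme, read 11.67 and 11.82 in controls and 12.59 and 12.54 in overexpression samples. Dlx2, at 0.42 (limma, adjusted p = 0.0498), no longer passed with housekeeping centring, where it was 0.31 (adjusted p = 0.108).

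Cell cycle inhibitors of the Cip/Kip class were listed because Lhx6 and Lhx8 are known to hold down Cdkn1c in the palate. The Cdkn1c probe read 15.99 and 15.89 in controls and 16, the maximum of the scale, on both overexpression arrays, so a rise could not have been seen. Cdkn1a, which encodes the p21 inhibitor, read 10.17 and 10.29 in controls and 11.22 and 11.17 in overexpression samples, a rise of 0.97, and its other probe rose by 0.56. Cdkn1b, which encodes the p27 inhibitor, had lower values, with -0.31 on its brighter probe (limma, adjusted p = 0.153). Its other probe read 6.75 and 6.81 in controls and 6.34 and 6.24 in overexpression samples, near or under the lower quartile of 6.79. That probe fell by 0.49 (adjusted p = 0.0378), and both Cdkn1b probes were dimmer than the array median. By the brightest probe, 1 of these 3 genes passed (33.3%, against 16.9% of all named genes).

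Each oral-field gene is also known from tissues outside the jaw, and genes of those programmes were read as a check. For the hindlimb, where Pitx1 acts upstream of Tbx4, 5 listed genes were measured. None fell, and the 1 that rose was Tbx5, a gene of the forelimb, so none of the others passed. The share called, 20%, was near the 16.9% of all named genes. Tbx4 gave -0.40 on its brighter probe and 0.07 on its other probe and did not pass, and Tbx5 rose by 0.70 on its brighter probe only, its other probe giving -0.10. None of 5 pituitary genes passed in limma (2 had an unadjusted p under 0.05). For the ventral forebrain, where Lhx6 and Lhx8 specify interneurons and cholinergic neurons, 2 of 9 measured genes fell and none rose. This share, 22.2%, was also near the background of 16.9%, and 3 of the 9 lay below the lower quartile on all arrays. The 2 that fell were Sst, a neuropeptide gene, from 9.44 and 9.60 to 7.88 and 7.76, and Gbx2, from 9.22 and 9.10 to 8.12 and 7.89. Among 9 genes of the sclerotome and pharyngeal pouches, where Pax9 and Pax1 act, 5 fell and none rose, with a median log2 fold change of -0.42. Here the share called was 55.6%, against 16.9% of all named genes. Tbx18 had -1.47 on its brighter probe and -0.29, which did not pass, on its other. Foxc2, Hoxa3, Meox1 and Eya1 had -0.86, -0.67, -0.63 and -0.42.

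The dissected tissue carried markers of arch mesenchyme and epithelium, and no measured marker of either list was below the lower quartile on all arrays. Of 12 arch mesenchyme markers 3 fell, Twist2, Twist1 and Col1a1, 1 rose, Prrx2, and 8 did not pass. Their mean log2 intensity was 12.44 and 12.40 in controls and 12.22 and 12.12 in overexpression samples. Of 13 epithelial markers 4 rose, among them Krt8 at 1.23 and Krt18 at 1.20, 2 fell, Krt14 at -0.79 and Krt5 at -0.46 (limma, adjusted p = 0.0496, and 0.0665 with an intensity trend in the variance), and 7 did not pass, with list means of 10.53 and 10.45, then 10.69 and 10.80. Macrophage markers had 4 of 9 that rose, C1qb, Adgre1, Tyrobp and C1qa, and none that fell, and their means were 8.23 and 8.21 in controls and 8.81 on both overexpression arrays. Of the other lists, muscle had 3 of 9 that rose, neurons 2 of 10, and endothelium 1 of 9, with none that fell, and 2 of 6 erythroid markers fell. The neuron list had means of 8.80 and 8.88, then 9.39 and 9.27. Hbb-bh1, Hbb-y and Hba-x of the erythroid list and Vim of the mesenchyme list read at least 15.75 on every array. That is at or near the maximum of 16, so differences in these genes may be hidden. Against 16.9% of all named genes, the share called was 44.4% for macrophage, 46.2% for epithelial and 33.3% for arch mesenchyme, muscle and erythroid markers, while neurons, at 20%, and endothelium, at 11.1%, were near that background. The part of these other cell types in the fall of Lhx8 and Pitx1 was not tested.

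**Figure D3:**
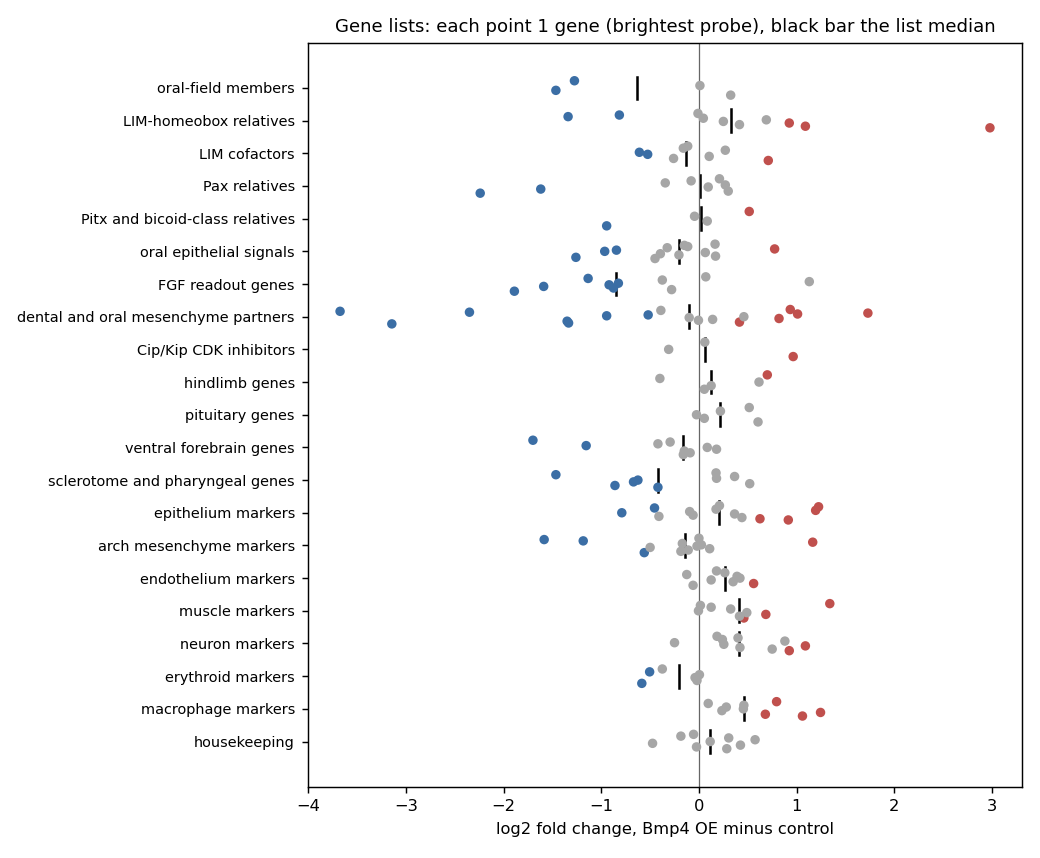
Log2 fold change of Bmp4 overexpression minus control (horizontal axis) for every measured gene of each list (vertical axis), 1 point per gene by its brightest probe, red for genes that rose, blue for genes that fell, grey for those that did not pass, and a black bar for the list median. FGF readout genes have the lowest median of the related lists, at -0.85, and the dental partners spread from -3.68 to 1.73.

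The values of the 5 probes under the other settings are plotted last. Both Lhx8 probes and Pitx1 stayed below 0, and Lhx6 above it, in every setting, while Pax9 moved to either side of 0. The groups of the Lhx8, Pitx1 and Lhx6 probes do not overlap, so removing an array or adding the offset could not change their sign. A repeated quantile normalisation, the filters, the variance models and the replicate block left the estimate of each probe they kept unchanged. Only cyclic loess and the housekeeping centring could have moved the sign of these probes.

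**Figure D4:**
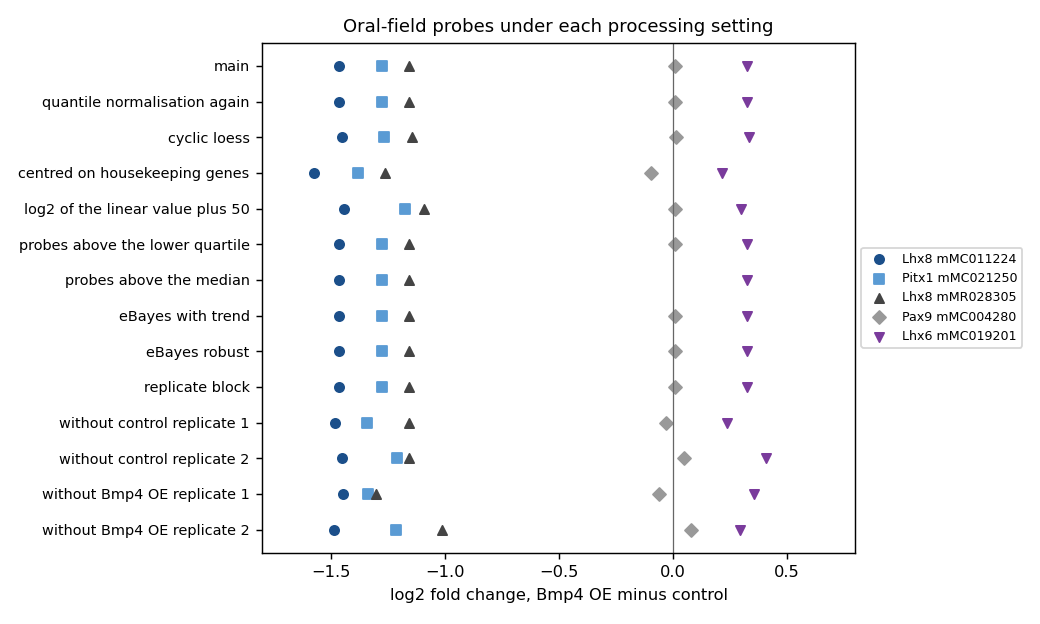
Log2 fold change of Bmp4 overexpression minus control (horizontal axis) for each of the 5 probes, 1 symbol per probe, under the deposited normalisation (main) and each alternative or left-out array (vertical axis); no errors are drawn. The brighter Lhx8 probe lies between -1.57 and -1.44 throughout, and Pax9 between -0.10 and 0.08.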

How the data were processed

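Whole E11.5 mandibles gave total RNA that was amplified with aminoallyl nucleotides and dyed with Cy5, per the labels' protocols. The deposited values are log2 intensities, given to 2 decimals. Sorted, the 4 columns are identical, so the authors' table had been quantile-normalised, and it cannot show a shift shared by most genes. That the base is log2 was read from the maximum of 16. How background was subtracted, which probes were filtered and which software was used is not given in the sources used here. The number of arrays limits the precision.

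The platform annotation named the probes: 17558 had a current symbol, 3410 an older one replaced through RefSeq (GRCm38.p6) synonyms, 52 an unmatched one and 8902 none. All 29922 probes were fitted in R 4.3.3 with limma 3.58.1 (two-sided, empirical Bayes without trend, Benjamini-Hochberg over all probes, 2 residual and 3.59 prior degrees of freedom). The code was also run on data simulated from the fit's own variance model, which cannot test the spread between real samples. Intervals are 95% moderated intervals. The brightest probe stood for a gene in lists. Named genes were the members, Bmp4, those that passed in the family, signal and partner lists, up to 4 of lowest p in other lists, and the 3 nearest profiles per probe. Further list genes, second probes and the promoter motifs were chosen after their values or sequences were seen. The members and lists were chosen with earlier results of these data known. Alternatives were other normalisations, an offset of 50, filters on dim probes, variance models, a replicate block and removal of each array.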

Additional observations from a re-analysis of the deposited data

How the results depend on the processing

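The falls of Lhx8 and Pitx1 passed in limma under every alternative except the replicate block and the removal of an array. Over 8 settings with all arrays, adjusted p was between 0.000459 and 0.00401 for the brighter Lhx8 probe (log2 fold change -1.57 to -1.44), between 0.00187 and 0.0103 for the second (-1.26 to -1.09), and between 0.000983 and 0.00624 for Pitx1 (-1.38 to -1.17). Centring on 9 housekeeping genes moved the median of all probes by -0.11, so changes there are relative to that shift. The log2 fold changes of these genes ran from -0.475 to 0.575. The highest was Rplp0, whose other probe, not used for the centring, gave -0.04, so the size of the shift depends on the probes chosen. This centring left 1570 probes higher and 4659 lower, against 1912 and 2515. It put Pax9 at -0.10 and Cdkn1c at -0.047, and ended the call of Dlx2. The variance trend ended that of Krt5. Filtering at the median removed the Pax9 probe and let Lhx1 pass (0.42, adjusted p = 0.0458).

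In the replicate block the numbers only name the samples (correlation of same-numbered deviations -0.07, 2 pairs). With it the estimates stayed at -1.47, -1.16 and -1.28 (limma, adjusted p = 0.0745, 0.0746 and 0.0745). There 0 probes passed, with 8724 probes at an unadjusted p under 0.05. Related genes are those of the 12 lists other than the members, cell type markers and housekeeping genes. Of these, 0 passed with the block, against 43 in the main fit (13 higher and 30 lower), where 16.9% of all named genes passed. At the study's threshold 364 probes were higher and 422 lower, and 20 related genes passed, 5 higher and 15 lower. Over all named genes 1.56% were higher and 1.76% lower at that threshold. Without each array in turn, log2 fold changes ranged from -1.49 to -1.45 and from -1.30 to -1.01 for the Lhx8 probes, -1.34 to -1.21 for Pitx1, 0.24 to 0.41 for Lhx6 and -0.06 to 0.08 for Pax9, and 0 probes and 0 related genes passed. The lone array of a group was then assumed to vary like the other group.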
